A study of Rattus norvegicus with 36 samples.

Results

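The 2 approved anti-fibrotic drugs of the study, nintedanib and pirfenidone, were compared directly in rat lung slices that had also received TGFb. The comparison used 12 of the 36 libraries, namely the 6 titled TGFb_72_Nint and the 6 titled TGFb_72_Pirf, and their count columns were found through the well code in each sample's description. Precision-cut lung slices are living sections of lung tissue maintained in culture, in which the resident epithelial, vascular, stromal and immune cells stay in place. TGFb was present in both drug groups, so neither group describes a drug without it. The other groups, each of 6 libraries, were slices with TGFb alone, slices with TGFb and Sora (sorafenib), and untreated slices at the labelled time 72 and at time 0. Nint and Pirf are read as nintedanib and pirfenidone. The labels give neither dose, so the differences below belong to the unknown doses used, and they give no unit for the time. Whether separate animals gave the 6 libraries of a group is not labelled. The p-values thus describe the spread among libraries alone, and that spread may be technical. For the gene tests it was pooled over all 36 libraries, and the library measures were tested in the 12 drug libraries.

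TGFb is a secreted growth factor that drives fibroblasts to become contractile and to lay down extracellular matrix, and it is widely used to provoke a fibrosis-like state in lung tissue. Nintedanib is a small molecule that blocks the receptor tyrosine kinases for platelet-derived, fibroblast and vascular endothelial growth factors, which drive the growth and migration of fibroblasts. Pirfenidone is a small pyridone with anti-fibrotic and anti-inflammatory activity, and its direct molecular target is not settled. Both are given to patients with idiopathic pulmonary fibrosis.

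The deposited tables identify genes by Ensembl ID and do not pair the IDs with names. The reference gene table used here matched 0 of the 15644 tested IDs, so genes are described by level, by size and direction of difference, and by whether the authors listed them as expressed and protein coding. Markers of lung cell types, pathway lists and gene sequences were not analysed here. The RNA comes from whole slices, in which fewer cells of a type and less RNA per cell cannot be told apart.

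Total counts lay between 19787248 and 31971883 in the Nint libraries and between 20347040 and 32299405 in the Pirf libraries. The mean total differed by -222000 counts (Nint minus Pirf), less than the spread within either group (two-sided exact permutation p = 0.93, n = 6 and 6). The TMM scaling factor, which corrects for a few abundant genes taking up a library, was 0.967 ± 0.0275 (SD, n = 6) with Nint and 1.07 ± 0.00867 with Pirf. All 6 Nint libraries, at 0.999 or less, lay below all 6 Pirf libraries, at 1.06 or more (exact permutation p = 0.0022, the smallest value possible with 6 and 6 libraries, adjusted p = 0.011 over 5 library measures). The 100 most abundant genes of each library took 29.5% ± 1.03 of its counts with Nint and 28.2% ± 0.627 with Pirf, a difference that failed the correction (exact permutation p = 0.028, adjusted p = 0.054). Genes outside the authors' coding table took 12.2% ± 1.04 with Nint and 13.6% ± 0.728 with Pirf, which also failed it (exact permutation p = 0.032, adjusted p = 0.054). Genes detected per library numbered 18120 ± 305 with Nint and 18580 ± 566 with Pirf (exact permutation p = 0.1, adjusted p = 0.13). Because the scaling factors differ between the drugs, the main counts by direction are given below with and without them.

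In the principal components of the 12 libraries, 51.9% of the variance lay on the first component, which separated the drugs. Its scores ran from 33.8 to 47 with Nint and from -51.7 to -33.6 with Pirf, so the groups did not overlap. The second component held 11% and did not separate the drugs. Nint replicate 5 stood apart on both, with a first score of 33.8 where the other 5 Nint libraries lay between 46.4 and 47, and a second score of 48.7 where no other library exceeded 22.6. Among the Pirf libraries, replicates 1, 5 and 6 lay farther from Nint, at -49.2 or below, than replicates 2, 3 and 4, at -41.8 or above. Without Nint replicate 5, 8172 genes were called between the drugs, 3963 higher and 4209 lower with Nint, against 8544, 4140 and 4404 with it.

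**Figure D1:**
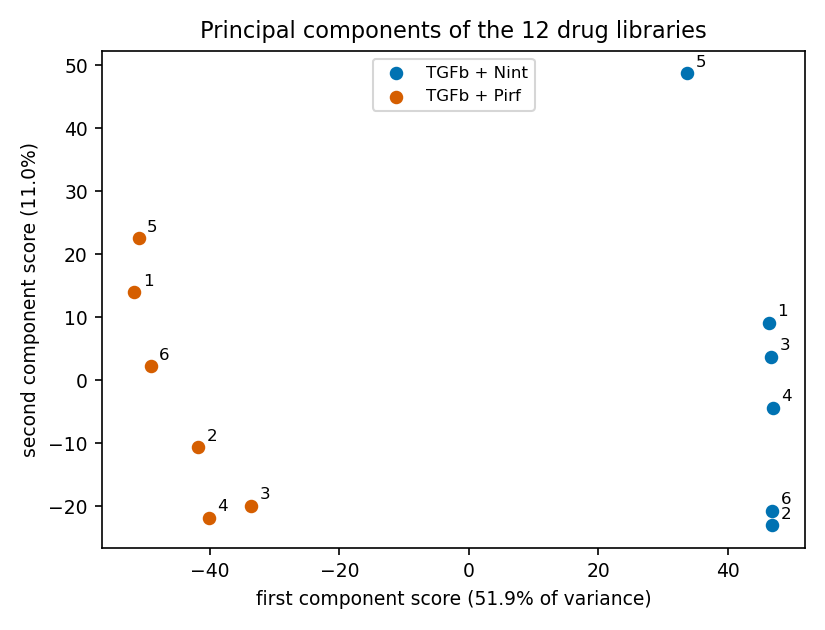
Scores of the 12 drug libraries on the first (x axis) and second (y axis) principal components of log2 CPM, each point a library with its replicate number. The Nint libraries lie at 33.8 or more on the first component and the Pirf libraries at -33.6 or less, and Nint replicate 5 has the highest second score, 48.7.

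Distances between libraries were computed in log2 units. The root mean square difference over all tested genes averaged 0.561 between pairs of Nint libraries and 0.513 between pairs of Pirf libraries. Between a Nint and a Pirf library it averaged 0.867, and the closest of the 36 such pairs, at 0.805, was farther apart than the most distant pair within either drug group, at 0.668. Libraries with TGFb alone differed from one another by 0.654 on average. They lay at 0.625 from the Nint libraries and at 0.871 from the Pirf libraries. The median over genes of the SD of log2 CPM within a group was 0.143 with Nint and 0.133 with Pirf, and it was 0.193 with TGFb alone.

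The drugs differed across much of the transcriptome. Of 15644 genes tested, 8544 (54.6%) were called at an adjusted p under 0.05 in edgeR's quasi-likelihood test with Benjamini-Hochberg adjustment. Of these, 4140 (26.5% of those tested) were higher with Nint and 4404 (28.2%) were lower with Nint. The spread behind these calls was pooled over all 36 libraries. A fit of the 12 drug libraries only called 9452 of the 14831 genes it tested. In the fit of all 36 libraries, 483 genes (3.09%) were called between Nint and TGFb alone and 8061 (51.5%) between Pirf and TGFb alone. Against untreated slices at 72, which received neither TGFb nor a drug, the numbers were 4137 (26.4%) for Nint and 8131 (52%) for Pirf. These comparisons share libraries with one another and are set side by side only. The number for Nint against TGFb alone rested in part on single libraries, since dropping replicate 2 of the TGFb-alone group left 309 genes and dropping its replicate 3 left 299.

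Without scaling factors the call went to 2660 genes higher and 6257 lower with Nint, and the median log2 fold change of all genes moved by -0.149. The share of called genes that were higher with Nint was thus 48.5% with the factors and 29.8% without them. With the size factors that DESeq2 uses it was 49.4%.

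Most differences were small. Of the called genes, 4925 (57.6%) differed by less than 1.5-fold and 1881 (22%) by 1.5 to 2-fold. Between 2 and 4-fold there were 1269 genes, 646 higher and 623 lower with Nint. Between 4 and 8-fold there were 275 genes, 120 higher and 155 lower. At 8-fold or more there were 194 genes, 56 higher and 138 lower with Nint, so most of the largest differences were genes with higher levels in the Pirf libraries. Without scaling factors the numbers were 40 and 159. Of the 194 genes, 106 had a mean normalized count of at least 50 in the higher group, 29 of them higher and 77 lower with Nint. In all, 1738 genes (11.1%) were called with at least a 2-fold difference, 822 higher and 916 lower with Nint (with no scaling factors, 629 and 1208), and 212 genes with a fitted difference of that size were not called. Tested against a fold of 1.2 in place of no change, 4602 genes were called.

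**Figure D2:**
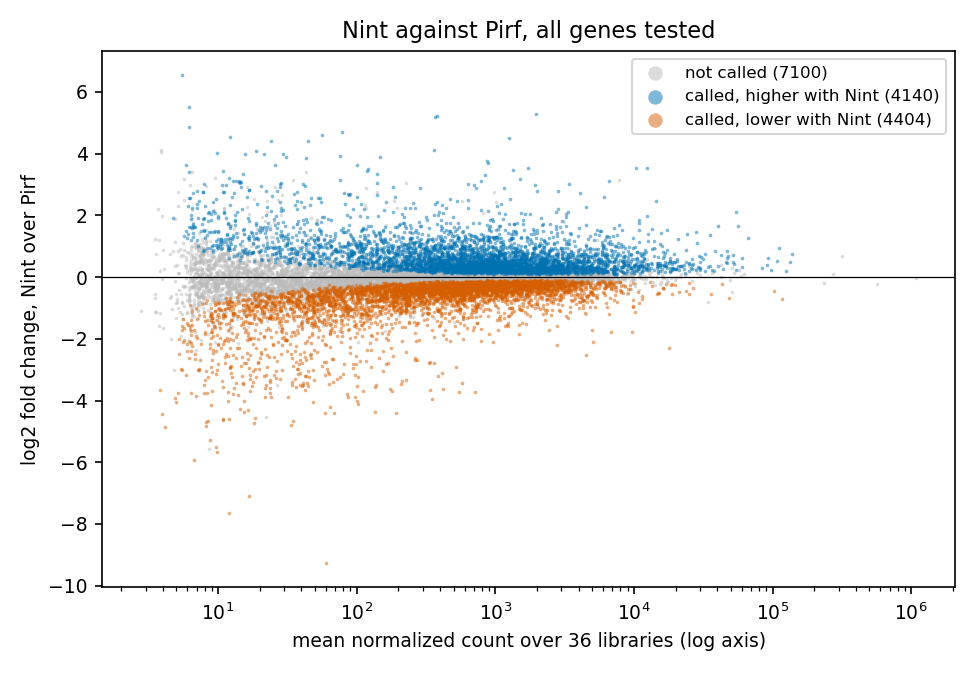
Log2 fold change of Nint over Pirf (y axis) against the mean normalized count over the 36 libraries (x axis, log scale) for the 15644 genes tested, 1 point per gene, coloured by call. Called genes number 4140 above and 4404 below the line of no difference, and the points lower with Nint reach farther from the line at low counts.

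For 6203 genes (39.7% of those tested) the 6 Nint libraries and the 6 Pirf libraries did not overlap in normalized counts. The directions were 3157 genes with every Nint library higher and 3046 with every Nint library lower. Of the 8544 called genes, 6089 were separated in this way and 2455 were not.

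The 4 IDs given next have the extreme log2 fold changes in each direction, out of 5675 called genes that met 2 conditions, namely no overlap between the groups and a mean of 50 or more normalized counts in the higher one. They are listed in the authors' coding table. RSEM can divide reads among genes of near-identical sequence, and whether that touches these IDs was not tested.

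ENSRNOG00000032626 was the gene with the most RNA in Nint relative to Pirf under this rule. Its normalized counts ran from 1077 to 4535 with Nint, with a median of 2577, and from 42.4 to 108.3 with Pirf, with a median of 61.4. The lowest Nint library was replicate 3 and the highest replicate 4, and the rule required that the groups not overlap. The log2 fold change was 5.29 (SE 0.42, adjusted p = 1.23e-11, edgeR), a 39.1-fold difference, with group means of 2636 ± 1105 (SD, n = 6) for Nint and 65.9 ± 25.4 for Pirf. With TGFb alone the mean was 2124 ± 1023 and in untreated slices at 72 it was 4073 ± 2314. Against TGFb alone the log2 fold change was 0.31 for Nint (SE 0.34, adjusted p = 0.836) and -4.98 for Pirf (SE 0.42, adjusted p = 4.99e-11). Every Pirf library also lay below every library of untreated slices at time 0, whose lowest was 254.3.

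ENSRNOG00000032832 came next under the same rule, which required that the drug groups not overlap. Nint libraries held 305 to 777 normalized counts, with a median of 474.1, and Pirf libraries 7.71 to 26.9, with a median of 12.8. Replicates 3 and 4 were again the lowest and the highest with Nint, and replicate 5 was the highest with Pirf for both IDs. The log2 fold change was 5.17 (SE 0.42, adjusted p = 1.83e-11), a 36-fold difference. Against TGFb alone, whose mean was 505.4 ± 256.2 (SD, n = 6), it was 0.09 for Nint (SE 0.32, adjusted p = 0.964), with the opposite sign when Nint replicate 1 or 4 or replicate 3 of TGFb alone was left out, and -5.08 for Pirf (SE 0.42, adjusted p = 3.88e-11). The Pirf libraries overlapped those of untreated slices at time 0, whose lowest was 21.7. With Sora the mean was 399 ± 187.5, within the range of the TGFb-alone libraries.

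ENSRNOG00000018792 was the gene with the most RNA in Pirf relative to Nint. Its normalized counts ran from 37.4 to 160.8 with Pirf, with a median of 119.4, and from 0 to 12.4 with Nint, with a median of 2.25. The highest Nint library was replicate 5, at 13 raw counts, and Nint replicates 2 and 4 had 0. The log2 fold change was -4.78 (SE 0.97, adjusted p = 0.000107), or 27.5-fold more with Pirf, and it was -5.60 without Nint replicate 5, -5.45 with limma-voom and -5.83 with limma on the deposited log2 CPM (adjusted p of 0.000653 or less in each of these). Against TGFb alone, whose mean was 6.61 ± 10.6 (SD, n = 6), it was -0.75 for Nint (SE 1.08, adjusted p = 0.898), with the opposite sign without TGFb-alone replicate 5 (0.73, adjusted p = 0.958), and 4.03 for Pirf (SE 0.91, adjusted p = 0.000444). The Pirf libraries overlapped those with Sora, whose highest was 57.38, and those of untreated slices at time 0, whose highest was 79.85. The untreated slices at 72 had a mean between those of the drugs, at 27.5 ± 18, and reached 56.78. Against them the log2 fold change was 2.0 for Pirf (SE 0.79, adjusted p = 0.0342) and -2.79 for Nint (SE 0.97, adjusted p = 0.032), and neither call was stable. The call for Pirf was lost without untreated replicate 1, 3, 4 or 5 or Pirf replicate 1, 5 or 6 (adjusted p from 0.0546 to 0.0734). That for Nint was lost without untreated replicate 2 or 6 or Nint replicate 2, 3, 4 or 6 (adjusted p from 0.052 to 0.0781).

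ENSRNOG00000012608 had 23.8 to 89.8 normalized counts with Pirf, with a median of 52.2, and 0 to 4.77 with Nint, with a median of 1.73. The Pirf libraries fell into a higher set, replicates 1, 5 and 6 at 77.96 or more, and a lower set, replicates 2, 3 and 4 at 26.4 or less. Replicates 1, 5 and 6 were also the highest 3 for ENSRNOG00000018792, and they are the 3 with the lowest first component scores. The log2 fold change was -4.72 (SE 1.0, adjusted p = 0.000202), or 26.3-fold more with Pirf. Against TGFb alone, at 4.37 ± 8.19 (SD, n = 6), it was 3.60 for Pirf (SE 0.91, adjusted p = 0.00139). For Nint it was -1.12 (SE 1.17, adjusted p = 0.83), with the opposite sign without TGFb-alone replicate 5 (0.839, adjusted p = 0.958). Against untreated slices at 72, at 12.8 ± 8.94 (SD, n = 6), it was 2.08 for Pirf (SE 0.81, adjusted p = 0.0313) and -2.64 for Nint, which was not called (SE 1.06, adjusted p = 0.0622). The call for Pirf was lost without untreated replicate 1, 4, 5 or 6 or Pirf replicate 1, 5 or 6 (adjusted p from 0.0523 to 0.0653). The Pirf libraries overlapped those of untreated slices at 72, whose highest was 30.06, of untreated slices at time 0 (60.69) and with Sora (24.87).

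**Figure D3:**
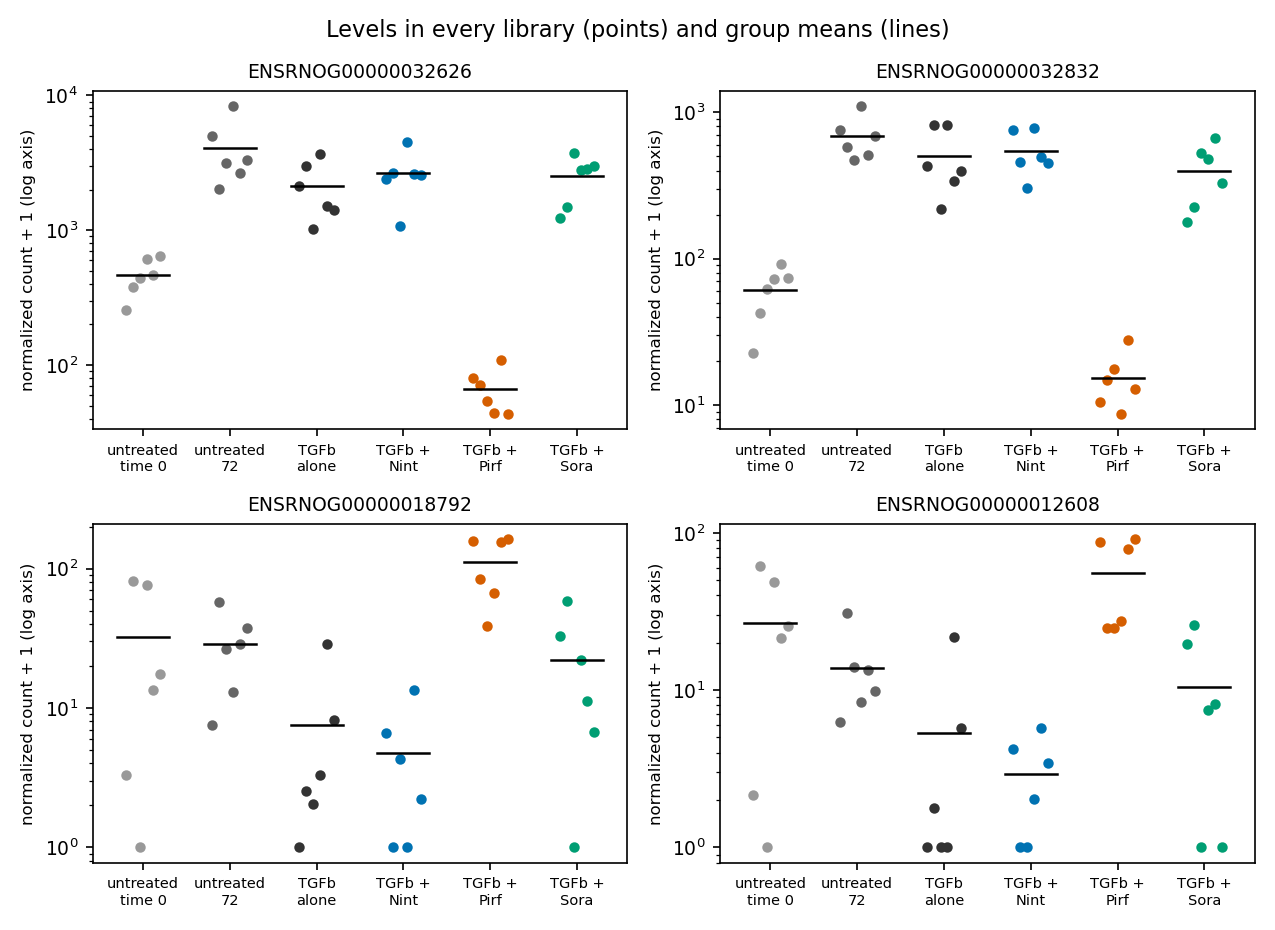
Normalized count plus 1 (y axis, log scale) of 4 gene IDs in each of the 36 libraries, by group (x axis), with a line at each group mean. In the upper panels the Pirf libraries lie below all other libraries at time 72, at 108.3 or less and at 26.9 or less, and in the lower panels they lie above all 6 Nint libraries.

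The well codes were read as plate positions, which the labels do not state. On this reading 4 Nint libraries and 1 Pirf library lay in plate column 4, and 1 Nint and 3 Pirf libraries in column 1. Column 2 held 1 of each, and column 3 held 1 Pirf library and no Nint library. Column and drug would then be partly confounded. With the plate column as a factor in the fit, 8088 genes were called, 3979 higher and 4109 lower with Nint.

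Differences were then examined by expression level, with the tested genes divided into 4 classes of 3911 by their mean over all 36 libraries. In the least expressed class, with means up to 96.3 normalized counts, 1627 genes (41.6%) were called, 543 higher and 1084 lower with Nint. In the most expressed class, with means of 1241 or more, 2438 genes (62.3%) were called, 1543 higher and 895 lower with Nint. The second class had 865 higher and 1294 lower, and the third had 1189 higher and 1131 lower. The share of called genes that were higher with Nint thus went from 33.4% in the least expressed class through 40.1% and 51.2% to 63.3% in the most expressed.

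Without scaling factors these shares were 24.1%, 25.3%, 29.3% and 39.1%, so that genes lower with Nint were the majority in every class, the most expressed included (932 higher and 1449 lower). Relative to the median of all genes, the median log2 fold changes of the 4 classes were -0.19, -0.062, 0.029 and 0.11 with the factors. A change of scaling factors moves all genes by nearly the same amount, so it does not test these relative values. The precision differed between classes, with a median SE of 0.297 in the least and 0.0742 in the most expressed. Differences of at least 2-fold were called for 23.5% of the least and 5.29% of the most expressed genes.

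**Figure D4:**
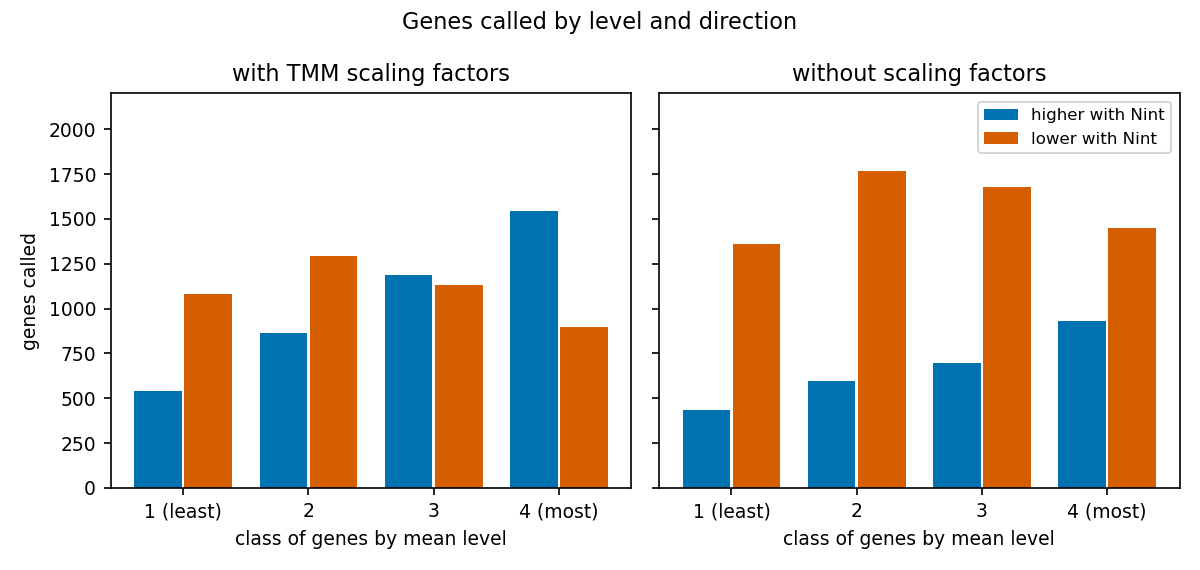
Number of genes called between Nint and Pirf (y axis) by class of mean level (x axis), higher (blue) or lower (orange) with Nint, with TMM scaling factors on the left and without on the right. On the left the majority passes from lower in class 1 (1084 of 1627) to higher in class 4 (1543 of 2438), and on the right lower is the majority in all 4.

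Of the 14480 tested genes in the coding table, 8160 (56.4%) were called, 3989 higher and 4171 lower with Nint (with no scaling factors, 2549 and 5920). Of the 1164 tested genes outside it, 384 (33%) were called, 151 higher and 233 lower with Nint (with no scaling factors, 111 and 337). The shares called were not compared at equal expression level. Regardless of sign, the median size of the log2 fold change was 0.446 outside the coding table and 0.305 within it. With sign, the median log2 fold change outside it was -0.121, against -0.0162 over all genes tested. Without scaling factors these signed medians were -0.271 and -0.165. Genes outside the coding table took 12.2% of the counts with Nint and 13.6% with Pirf, as given above, and the part of that difference in these calls was not tested.

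The other groups were placed on the line that runs from the mean of the Pirf libraries, set to 0, to the mean of the Nint libraries, set to 100, over the 1738 genes called with at least a 2-fold difference. Each drug library was placed on a line computed from the other 11, over genes called without it. Nint libraries then stood at 96 ± 9.72 (SD, n = 6) and Pirf libraries at 3.41 ± 11.9. The lowest Nint library was replicate 5 at 77.3, and the other 5 lay between 95 and 103. The highest Pirf library was replicate 3 at 21.5.

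Slices with TGFb alone, which entered neither mean, stood at 89.5 ± 18.6 (SD, n = 6), with libraries from 61.4 to 113, a range that overlapped Nint and stayed above every Pirf library. Untreated slices at 72 stood at 60.3 ± 15, from 42.2 to 80.9, between the Pirf libraries and 5 of the 6 Nint libraries. Sora libraries, which also received TGFb, ranged from 36.2 to 86.4. Untreated slices at time 0 were the most spread, from 5.15 to 61.2, and 2 of those 6 libraries lay within the range of the Pirf libraries.

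Gene by gene, the mean with TGFb alone lay nearer to the Nint mean than to the Pirf mean for 1586 of these 1738 genes (91.3%), and over all tested genes for 77.6%. This was so for 776 of the 822 genes higher with Nint and for 810 of the 916 genes lower with Nint. The mean of untreated slices at 72 lay nearer to Nint for 1102 of the 1738 genes (63.4%, and 64.5% over all tested genes). By direction it was nearer to Nint for 645 of the 822 genes higher with Nint (78.5%) and for 457 of the 916 lower with Nint (49.9%). The split by direction over all tested genes was not computed, for TGFb alone or for untreated slices, so these shares have no background beside them. These positions are descriptions with no test.

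**Figure D5:**
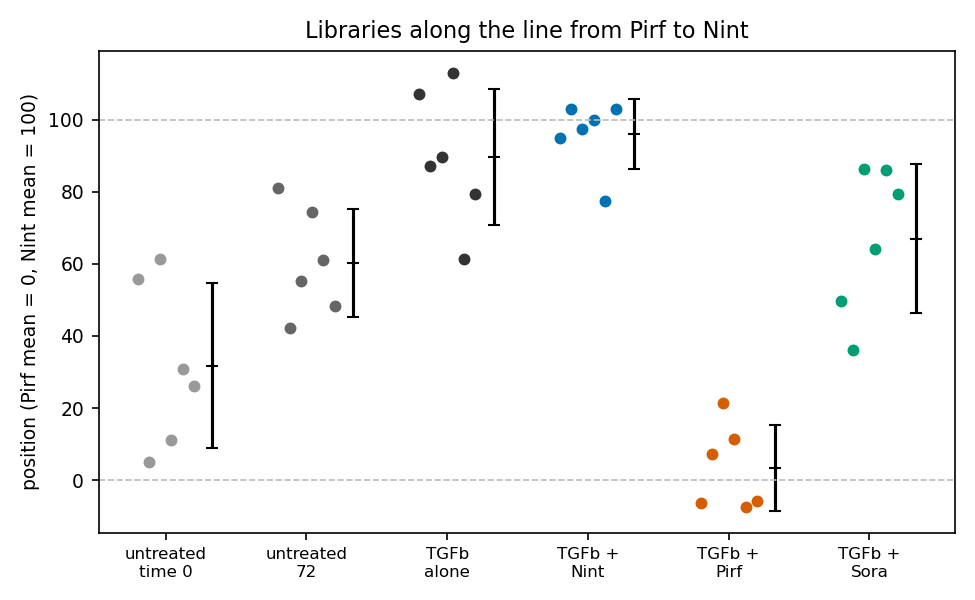
Position of every library (y axis, Pirf mean 0 and Nint mean 100, dashed) by group (x axis), with the group mean and SD beside the points. TGFb alone lies at 89.5 ± 18.6, near the Nint libraries, and untreated slices at 72 at 60.3 ± 15.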

How the data were processed

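RNA from rat lung slices was sequenced in 36 libraries, 6 per group, with groups and replicate numbers from the sample titles. Per the labels' protocols, stranded total RNA libraries were made after ribosomal RNA removal. Per the submitters' processing notes, RSEM, edgeR and the build Rnor_6.0 were used. For aligner, annotation release and strand setting: not given in the sources used here. One deposited table lists the authors' expected counts for 32883 Ensembl IDs, with 8.31% of values not whole. The other lists the authors' log2 CPM values for 14984 IDs, called expressed and protein coding in the file name (the coding table).

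Expected counts were rounded, and edgeR 4.0.16 was run in R 4.3.3. filterByExpr left 15644 IDs. A single quasi-likelihood model of all 36 libraries had TMM factors, a mean per group and no covariate, and glmQLFTest compared Nint with Pirf, with Benjamini-Hochberg adjustment over all IDs tested. SE was taken as the size of the log2 fold change over the square root of F. Normalized counts were scaled by TMM to the mean library size. Components, distances and positions used log2 CPM with a prior count of 2, and a position is a projection on the difference between the drug means. The 2 IDs per direction with the most extreme fold changes were taken by the rule given with them.

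The members, lists and rules were chosen with earlier results of these data known. The level classes, components, distances, positions, the counts of at least 8-fold, outside the coding table and against untreated slices or TGFb alone, and 2 of the 5 library measures (genes detected, 100 most abundant genes) were added after the data were examined, and so were their alternatives. Gene lists, marker lists and genes fixed by name were not run, since no ID had a name. Alternatives were limma 3.58.1, DESeq2 1.42.0, other scaling, filters and covariates, and leaving out each library of the groups compared. Libraries were checked for duplicates: squared differences of 2 libraries' counts averaged 14 to 131 times the sampling variance.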

Additional observations from a re-analysis of the deposited data

Results flagged for a closer look

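Gaps within groups of 6 were examined in 44 sets of values. Of these, 5 sets held a library far from the other 5 (by Dixon's ratio of that gap to the group's range). For independent, normally distributed values, chance flags about 1 set in 20. The sets share libraries and the normalized counts were not put on a log scale, so that rate need not hold here. Nint replicate 5 had the lowest first component score of its group, at 33.8 against 46.4 for the next. It also had the lowest position on the Pirf-to-Nint line, at 77.3 against 95 for the next. TGFb-alone replicate 5 had the highest level of ENSRNOG00000018792 in its group, at 27.54 normalized counts against 7.17 for the next. The same library had the highest level of ENSRNOG00000012608, at 20.65 against 4.78. In untreated slices at 72, replicate 2 had the highest level of ENSRNOG00000012608, at 30.06 against 13.1.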

How the results depend on the processing

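The number of genes called between the drugs lay between 7585 and 9452 under every alternative tried except the test against a fold of 1.2, which called 4602 (2252 higher and 2350 lower with Nint). Without scaling factors 2660 genes were called higher with Nint. Requiring a mean of at least 50 counts left 1047 genes with at least a 2-fold difference, in fewer genes tested (12795). DESeq2 called 8794 genes and limma-voom 8724, and of the 8544 called genes 99.5% and 98.5% were called in the same direction. With the replicate block 8605 genes were called, and 9203 with the block in the 12 drug libraries alone. In each group replicate numbers follow the order of well codes, so they were not taken to pair libraries. The block adjusts for no known pairing. Across genes, same-numbered libraries' deviations from group means correlated at -0.141 to 0.383 between Nint and Pirf. Of 6 Nint libraries, 2 correlated best with their own number. Against TGFb alone the range was -0.148 to 0.561 for Nint and -0.313 to 0.35 for Pirf. Replicate 5 was highest in all 3 of these pairs of groups. With the block, 487 genes were called between Nint and TGFb alone, 8121 between Pirf and TGFb alone, and 4216 and 8245 against untreated slices, and ENSRNOG00000012608 was called between Nint and untreated slices (adjusted p = 0.0476). Leaving out 1 library of either group gave 299 to 572 genes for Nint against TGFb alone. Leaving out 1 drug library at a time gave 8090 to 8412 called genes, 3935 to 4096 higher, 4129 to 4316 lower and 1678 to 1814 with at least a 2-fold difference. Differences of at least 8-fold were called for 323 genes with no filter on low counts and 83 with a mean of at least 50 counts, against 194. For genes that the authors did not list as coding, 151 higher and 233 lower calls became 252 and 388 with no filter, 75 and 113 with a mean of at least 50 counts, and 96 and 139 against a fold of 1.2. In the most expressed class 1543 higher and 895 lower calls became 724 and 334 against a fold of 1.2, and 932 and 1449 without scaling factors. Between the drugs, the 4 IDs kept their direction and stayed under an adjusted p of 0.05 under each alternative that tested them (ENSRNOG00000012608 was not tested with a mean of at least 50 counts). They were chosen from these same libraries for extreme differences without overlap, so this is no independent test of them. The difference in mean total count changed sign when 1 drug library at a time was left out (-1560000 to 1140000). The adjusted p for the share of counts outside the coding table fell under 0.05 without Nint replicate 5 (0.032) or Pirf replicate 5 (0.049). That for the 100 most abundant genes did so without Nint replicate 2 (0.032) or 6 (0.027). Low counts limit the IDs higher with Pirf, which had 0 to 13 raw counts in the Nint libraries.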
